A study of Mus musculus with 17 samples.

Results

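Loss of Rbp2 in beta cells was examined by setting 4 arrays of islet RNA labelled Rbp2flf, RIP-Cre against 3 arrays labelled RIP-Cre, chosen by the array titles, which is 7 of the 17 arrays of the series. Rbp2 is an older name of Kdm5a, and the files carry the gene as Kdm5a. All mice were 2 months old and untreated, the tissue was isolated pancreatic islets, and total RNA was hybridised to Affymetrix whole-transcript arrays. The RIP-Cre group carries the Cre transgene with no floxed allele named. The Rbp2flf RIP-Cre group carries the same transgene with floxed Rbp2. RIP stands for the rat insulin promoter, which drives Cre in beta cells, so the other islet and surrounding cells are expected to keep the gene. The other groups are wt (3 arrays), Men1flf RIP-Cre (3) and Men1flf Rbp2flf RIP-Cre (4). The last 2 are used below to measure loss of Rbp2 a second time, as a difference between other arrays. The spread of each gene was estimated over all 17 arrays, so both comparisons share that estimate. Within a group the titles give repeat numbers without naming separate animals, so p-values measure only the spread between these arrays.

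Kdm5a removes methyl groups from lysine 4 of histone H3, a mark that sits at the start sites of active genes, and is found with the retinoblastoma protein and with Sin3 histone deacetylase complexes. Menin, the product of Men1, belongs to methyltransferase complexes that place the same mark. Beta cells are the insulin-producing cells of the islet, and loss of menin makes them form tumours. The comparison asks which islet transcripts differ once the demethylase is deleted.

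Values are log2 intensities of 1 probe set per gene, for 19938 genes, so that a difference of 1 is a doubling. A gene was called when its adjusted p from limma (Benjamini-Hochberg over all genes) was below 0.05. Of 19938 genes, 2672 were called (13.4%), with 1336 higher (6.7%) and 1336 lower (6.7%) in Rbp2flf RIP-Cre islets. A difference of at least 2-fold was reached by 76 of them, 38 in each direction. The genes that stood furthest from the spread between arrays were the calcium channel inhibitor Gem and the mRNA-editing enzyme Apobec1, which were lower, and the sulfatase-activating enzyme Sumf1, which was higher. Pcp4, Dapl1, Dio1 and Ccnd1 were higher by more than 2-fold both here and when Rbp2 was lost in islets that also lack Men1. Called higher, against 6.7% of all genes, were 14 of 35 subunits of respiratory complex I, 21 of 39 of complexes II to V, 19 of 28 chaperones and stress genes of the endoplasmic reticulum (ER) and 5 of 9 subunits of the ER membrane complex. Without RIP-Cre array 3 these counts became 2, 0, 1 and 2, and without Rbp2flf RIP-Cre array 1 they became 3, 2, 2 and 2. Over all genes the higher calls fell from 1336 to 124 and to 249 in these settings. The median log2 differences of the lists were then 0.285, 0.43, 0.50 and 0.54, and 0.30, 0.46, 0.58 and 0.42. After cyclic loess, which is described below, 8, 8, 7 and 4 members were called higher, against 5.61% of all genes. The 4 lists are bright. In the 3 brightest of 10 equal level bins, 10.9%, 14.4% and 25.7% of all genes were called higher as deposited.

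The number of genes called moved with the normalization and with single arrays. The median of the tested genes was 8.03, 7.97 and 8.16 on the RIP-Cre arrays and 7.82, 7.96, 7.98 and 7.97 on the Rbp2flf RIP-Cre arrays, while the 75th percentile of all probe sets lay between 8.92 and 8.95 on every array of the series. RIP-Cre array 3 had the highest of these 7 medians and Rbp2flf RIP-Cre array 1 the lowest, and the groups overlapped. The median log2 difference over all genes was -0.13. After cyclic loess, which removes level-dependent shifts between arrays, that median was -0.01 and 1879 genes were called (9.42%), 1119 higher (5.61%) and 760 lower (3.81%). Both settings called 1387 genes alike. Adding the median of each array to the model left 42 genes called (0.211%), 32 higher (0.16%) and 10 lower (0.0502%), and the median size of the difference among the 2672 genes was 0.29 (median SE 0.13) in place of 0.49 (median SE 0.13). Without RIP-Cre array 3 the deposited values gave 223 calls, without Rbp2flf RIP-Cre array 1 they gave 353 and without Rbp2flf RIP-Cre array 2 they gave 920. The part of the differing array medians in the calls was not tested beyond these settings.

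The direction of the calls followed the level of the gene. In the dimmest 10% of genes, with a median level of 5.72, the median log2 difference was -0.27, and 3 genes were called higher against 182 lower. In the brightest 10%, with a median level of 10.52, it was 0.18, and 513 genes were called higher against 52 lower. After cyclic loess the medians of all 10 level bins lay between -0.02 and 0.01. Counts for most gene lists are therefore given below both as deposited and after cyclic loess. A list count with no loess value beside it holds for the deposited values only.

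**Figure D1:**
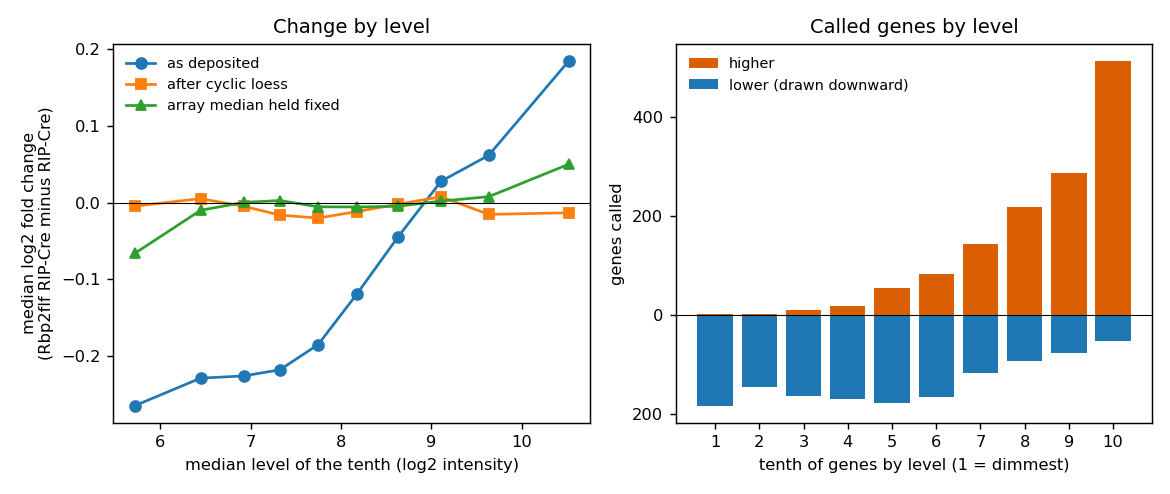
Left, median log2 fold change (Rbp2flf RIP-Cre minus RIP-Cre) in 10 equal bins of 19938 genes by mean level, against the median level of the bin, for the deposited values, the loess values and a model with the median of each array. Right, genes called higher and lower in each bin. The deposited line runs from -0.27 in the dimmest to 0.18 in the brightest bin, and the loess line stays near 0.

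A smaller set of 159 genes (0.797% of those tested; 106 higher, 53 lower) was called with all arrays, without each of the 7 arrays in turn and after cyclic loess. These are called stable genes below. The set was defined after the values were seen. With the array median as a covariate, 34 of the 159 were called too, 24 higher and 10 lower. Of the 15 genes with the highest differences 8 were stable, and of the 15 with the lowest 5 were. Stable and also called with the array median as a covariate were 0 of the 15 highest and 3 of the 15 lowest. All 10 genes with the highest and all 10 with the lowest moderated t were stable. These genes were picked on the same values.

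The targeted gene itself was measured first. Kdm5a read 9.37, 9.31 and 9.09 on the RIP-Cre arrays and 9.18, 9.02, 9.01 and 8.95 on the Rbp2flf RIP-Cre arrays. The groups overlapped, and the difference of -0.22 ± 0.11 (SE; log2) was not called (adjusted p = 0.148); with array weights it was -0.33 and called (adjusted p = 0.0105). Where the probes of this set lie relative to the floxed exons is not given in the sources used here, and cells outside the beta lineage keep the gene, so this value does not check the deletion. In the Men1 background the difference was -0.21 (adjusted p = 0.399).

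Men1, the partner gene of the study, was higher after loss of Rbp2. It read 9.31, 9.49 and 9.38 on the RIP-Cre arrays and 10.24, 10.05, 10.11 and 10.09 on the Rbp2flf RIP-Cre arrays, with every Rbp2flf RIP-Cre array above every RIP-Cre array. Groups separated in this way, in either direction, in 27% of all tested genes. The difference was 0.73 ± 0.11 (1.66-fold; adjusted p = 0.00359), Men1 was stable, and it was called with the array median as a covariate (adjusted p = 0.0384). Between the double and the Men1 knockouts, whose beta cells carry a floxed Men1, the difference was 0.30 (adjusted p = 0.205).

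Promoters of 5 genes that the results turn on are shown here, since Kdm5a acts on a promoter mark and its ARID domain has been reported to bind the letters CCGCCC. Men1 and Sumf1 stand for stable genes that rose, Pcp4 and Dio1 for genes that rose in both Men1 backgrounds, and Apobec1 for one that fell in both. Each runs from 250 bases before to 50 bases after the start of the gene in RefSeq (GRCm38.p6), 5′ to 3′ on the strand of the gene, with CCGCCC or its reverse complement GGGCGG in capitals. The positions are chr19:6334729-6335028 (plus strand), chr6:108185534-108185833 (minus strand), chr16:96467356-96467655 (plus strand), chr4:107307119-107307418 (minus strand) and chr6:122602395-122602694 (minus strand) in that order.
Men1: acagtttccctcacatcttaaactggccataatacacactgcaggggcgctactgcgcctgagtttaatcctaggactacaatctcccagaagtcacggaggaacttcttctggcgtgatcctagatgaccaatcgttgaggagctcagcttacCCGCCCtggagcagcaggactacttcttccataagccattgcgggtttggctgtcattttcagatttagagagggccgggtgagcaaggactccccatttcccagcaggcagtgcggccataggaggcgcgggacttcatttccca
Sumf1: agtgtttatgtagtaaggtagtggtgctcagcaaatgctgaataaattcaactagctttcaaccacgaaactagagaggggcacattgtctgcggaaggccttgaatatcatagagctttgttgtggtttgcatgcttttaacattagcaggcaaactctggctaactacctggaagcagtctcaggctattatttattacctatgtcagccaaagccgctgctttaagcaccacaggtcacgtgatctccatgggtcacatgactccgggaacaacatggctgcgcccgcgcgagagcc
Pcp4: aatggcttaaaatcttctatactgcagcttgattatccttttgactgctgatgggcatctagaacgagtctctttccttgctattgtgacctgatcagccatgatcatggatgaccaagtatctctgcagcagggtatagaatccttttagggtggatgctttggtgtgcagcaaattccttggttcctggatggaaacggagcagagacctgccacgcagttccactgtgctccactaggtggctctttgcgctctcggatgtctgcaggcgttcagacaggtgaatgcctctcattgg
Dio1: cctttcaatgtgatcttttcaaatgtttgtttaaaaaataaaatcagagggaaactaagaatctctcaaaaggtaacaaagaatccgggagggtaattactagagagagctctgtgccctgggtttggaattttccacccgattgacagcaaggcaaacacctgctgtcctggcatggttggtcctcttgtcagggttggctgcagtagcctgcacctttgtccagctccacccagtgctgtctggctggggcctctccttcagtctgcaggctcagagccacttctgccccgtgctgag
Apobec1: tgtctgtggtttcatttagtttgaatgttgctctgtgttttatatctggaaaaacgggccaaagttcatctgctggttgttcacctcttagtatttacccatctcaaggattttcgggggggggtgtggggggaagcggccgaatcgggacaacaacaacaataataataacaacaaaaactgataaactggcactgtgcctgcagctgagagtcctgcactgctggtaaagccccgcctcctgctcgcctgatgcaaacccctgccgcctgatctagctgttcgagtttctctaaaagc
The Men1 window holds the letters once, on the strand of the gene, and the other 4 windows do not hold them. Men1 has 3 promoters listed, of which only the first was searched.

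Over all genes the share of promoters with the motif was higher in brighter genes. Only the first promoter listed for a gene was used. A promoter was listed for 15614 of the 19938 genes, and CCGCCC was found on either strand in 49.9% of them, in 65.2% of the 1089 matched genes called higher and in 43.8% of the 1001 called lower. GGGCGG is also the core of the GC box, so the same match counts for both. When genes were split by level into 3 equal classes, the share in the brightest class was 68.7%, with 66.1% of genes called higher and 67.2% of those called lower. In the dimmest class it was 23.8%, with 21.7% of the 414 genes called lower and 6 of the 13 called higher (46.1%), a small number. These differences were not tested. TGGGAA, the core letters bound by Rbpj, was found in 24.0% of all promoters, 24.0% of those called higher and 24.8% of those called lower. CACGTG, the E-box, was found in 8.38%, 12% and 6.29% in the same order, without a split by level.

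The genes with the largest drops encode an inhibitor of calcium entry, an RNA editor and an antigen-presenting chain. Gem, a small GTPase of the RGK family that inhibits voltage-gated calcium channels, read 9.53, 9.60 and 9.15 on the RIP-Cre arrays and 7.48, 7.36, 7.52 and 7.87 on the Rbp2flf RIP-Cre arrays. The groups lay far apart, with a gap of more than 1 on the log2 scale. Gem fell by 1.87 ± 0.17 (3.65-fold; adjusted p = 9.62e-05) and had the lowest moderated t of the named genes. Apobec1, a cytidine deaminase that edits apolipoprotein B mRNA, read 10.28, 10.25 and 10.30 against 8.62, 8.56, 8.57 and 8.95. The RIP-Cre arrays agreed within 0.05, and Rbp2flf RIP-Cre array 4 was the highest of its group but far below them. Apobec1 fell by 1.60 ± 0.17 (3.03-fold; adjusted p = 0.000464).

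H2-Eb1, a beta chain of MHC class II, read 9.68, 9.29 and 9.35 on the RIP-Cre arrays and 7.27, 7.41, 8.62 and 7.42 on the Rbp2flf RIP-Cre arrays. Array 3 of the Rbp2flf RIP-Cre group stood more than 1 unit above the others of its group, yet below every RIP-Cre array. H2-Eb1 fell by 1.76 ± 0.38 (adjusted p = 0.0155), but it was not called without RIP-Cre array 3 or without Rbp2flf RIP-Cre array 1. Of the 9 tested MHC class II genes it was the only one called, which is 11.1%, against 13.4% of all genes. H2-K2, an MHC class I gene with near-identical copies whose probes may not be told apart, fell by 0.81 ± 0.11 (adjusted p = 0.00164) and was stable.

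Among the other large drops, Rdh13, a mitochondrial retinol dehydrogenase, read 9.42, 9.43 and 9.33 against 8.44, 8.21, 8.37 and 8.25, with no overlap. It fell by 1.08 ± 0.14 (adjusted p = 0.00197). Lrmda fell by 1.08 ± 0.19 (adjusted p = 0.00878) and Sfxn4, a mitochondrial sideroflexin, by 0.94 ± 0.17 (adjusted p = 0.00942). These 3 were stable. Gdpd3, a lysophospholipase D, read 9.42, 9.07 and 9.26 against 7.41, 9.49, 7.45 and 7.49, so that Rbp2flf RIP-Cre array 2 lay above all RIP-Cre arrays while the other 3 lay well below. Its difference was -1.29 ± 0.41 (adjusted p = 0.0487), and it was not called after cyclic loess or without any 1 of 6 of the 7 arrays. Ankrd7 and Cytl1 also overlapped between groups, and neither these nor Psg18 were called after cyclic loess. Ankrd7 rested on RIP-Cre array 2 at 7.89, against 5.29 and 5.75 on the other RIP-Cre arrays.

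Dmtn, Zfp872, Baiap2l2, Celsr1, Ring1 and Rtkn2 fell by smaller but more even amounts and were all stable. Dmtn, the actin-bundling protein dematin, read 8.22, 8.38 and 8.40 against 7.32, 7.47, 7.70 and 7.61 and fell by 0.81 ± 0.10 (adjusted p = 0.000979). Celsr1, a cadherin of planar cell polarity, read 8.60, 8.62 and 8.49 against 8.02, 7.89, 7.82 and 7.74 and fell by 0.70 ± 0.10 (adjusted p = 0.00407). In both genes every Rbp2flf RIP-Cre array lay below every RIP-Cre array. Ring1, the ubiquitin ligase of Polycomb repressive complex 1, read 9.83, 9.84 and 9.84 against 8.90, 9.06, 9.36 and 9.06 and fell by 0.74 ± 0.12 (adjusted p = 0.00545).

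Among the genes that rose, the largest difference was that of Pcp4, a small peptide that binds calmodulin. Pcp4 read 9.22, 9.18 and 10.34 on the RIP-Cre arrays and 11.92, 10.96, 11.14 and 11.87 on the Rbp2flf RIP-Cre arrays. RIP-Cre array 3 was more than 1 unit above the other RIP-Cre arrays, and all Rbp2flf RIP-Cre arrays were higher still. Pcp4 rose by 1.89 ± 0.35 (3.71-fold; adjusted p = 0.00942). Its relative Pcp4l1 rose by 0.77 ± 0.15 (adjusted p = 0.013), and without RIP-Cre array 3 the difference was 0.74 but not called (adjusted p = 0.0586).

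Dapl1 read 10.38, 10.17 and 10.82 against 12.20, 12.27, 12.30 and 12.08, and the groups were apart by more than 1 unit. It rose by 1.76 ± 0.38 (adjusted p = 0.0163). Dio1, the selenoenzyme that converts the thyroid prohormone to its active form, read 9.08, 8.97 and 8.34 against 10.22, 10.05, 10.07 and 10.10. The Rbp2flf RIP-Cre arrays agreed within 0.2, while RIP-Cre array 3 lay below the other controls. Dio1 rose by 1.31 ± 0.22 (adjusted p = 0.00708). Ccnd1, cyclin D1, which drives entry into the cell cycle with Cdk4 and Cdk6, read 10.76, 10.24 and 10.58 against 11.96, 11.84, 11.54 and 11.72, again with no overlap. It rose by 1.24 ± 0.20 (2.36-fold; adjusted p = 0.00618).

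Emc7, a subunit of the ER membrane complex, read 8.70, 8.69 and 8.22 against 10.39, 9.95, 9.74 and 9.84, with a gap of about 1 unit between the groups. It rose by 1.44 ± 0.24 (adjusted p = 0.00708). Selenop, a secreted carrier of selenium, read 10.55, 10.27 and 10.50 against 12.04, 11.65, 11.41 and 11.89 and rose by 1.31 ± 0.19 (adjusted p = 0.00407). Its groups were also apart. Tcf24 and Marcks, a substrate of protein kinase C, rose by 1.22 ± 0.18 and 1.19 ± 0.21 (adjusted p = 0.00454 and 0.00933). These 4 and Dapl1, Dio1, Ccnd1 and Pcp4 were the 8 stable genes of the top 15. None of the 8 was called with the array median as a covariate.

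The other 7 lost their call without at least 1 array. Msln, the surface protein mesothelin, read 8.26, 7.87 and 9.58 against 10.92, 10.39, 9.97 and 9.82, where RIP-Cre array 3 came close to the lowest Rbp2flf RIP-Cre array. Its difference was 1.71 ± 0.42 (adjusted p = 0.0232), and the call was lost without RIP-Cre array 2 or without Rbp2flf RIP-Cre array 1 or 2. Lgi1 (1.62), the histone genes H2bc4 (1.31) and H1f2 (1.20) and the defensin Defb1 (1.25) were not called without RIP-Cre array 3. Dnajb9 (1.37), an ER co-chaperone, and Rgs2 (1.31), which shortens G protein signals, were each lost without any 1 of 3 arrays, RIP-Cre array 3 and Rbp2flf RIP-Cre array 1 among them. Histone genes have near-identical copies, so which copy the probes read is uncertain.

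The most even increases were smaller. Sumf1 read 8.90, 8.68 and 8.81 on the RIP-Cre arrays and 10.01, 9.86, 9.96 and 9.65 on the Rbp2flf RIP-Cre arrays, with no overlap. It rose by 1.07 ± 0.10 (2.1-fold; adjusted p = 0.000108) and had the highest moderated t of the named genes. Akr1c14, a steroid dehydrogenase, read 8.12, 8.15 and 7.69 against 9.34, 9.11, 9.01 and 9.16 and rose by 1.17 ± 0.13 (adjusted p = 0.000655). Tomm40l, a relative of the import pore of the outer mitochondrial membrane, read 8.17, 8.34 and 8.24 against 9.10, 9.10, 9.01 and 8.93 and rose by 0.79 ± 0.09 (adjusted p = 0.000659). All 3 were called with the array median as a covariate, with adjusted p of 0.00408, 0.00444 and 0.00696.

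The remaining genes with the highest moderated t rose by between 0.68 and 0.95. Kcnip2, a subunit that modulates Kv4 potassium channels, read 7.29, 7.38 and 7.45 against 8.20, 8.14, 8.20 and 8.46, and rose by 0.88 ± 0.12 (adjusted p = 0.00245). Vps50, a subunit of an endosomal recycling complex, rose by 0.92 ± 0.12 (adjusted p = 0.00136). Ndufa9, a subunit of respiratory complex I, read 8.88, 8.78 and 8.63 against 9.81, 9.70, 9.73 and 9.56 and rose by 0.94 ± 0.12 (adjusted p = 0.00164). Adh1, an alcohol dehydrogenase, rose by 0.95 ± 0.13 (adjusted p = 0.00239). The list is completed by Lrch2 (0.82), the dynactin subunit Dctn3 (0.69) and Entpd4 (0.68), a nucleotide phosphatase of inner membranes. All 10 had groups that did not overlap, against 27% of all genes, and were called with the array median as a covariate, against 0.211% of all genes. They were picked by their t in this same comparison, so neither count is independent support.

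**Figure D2:**
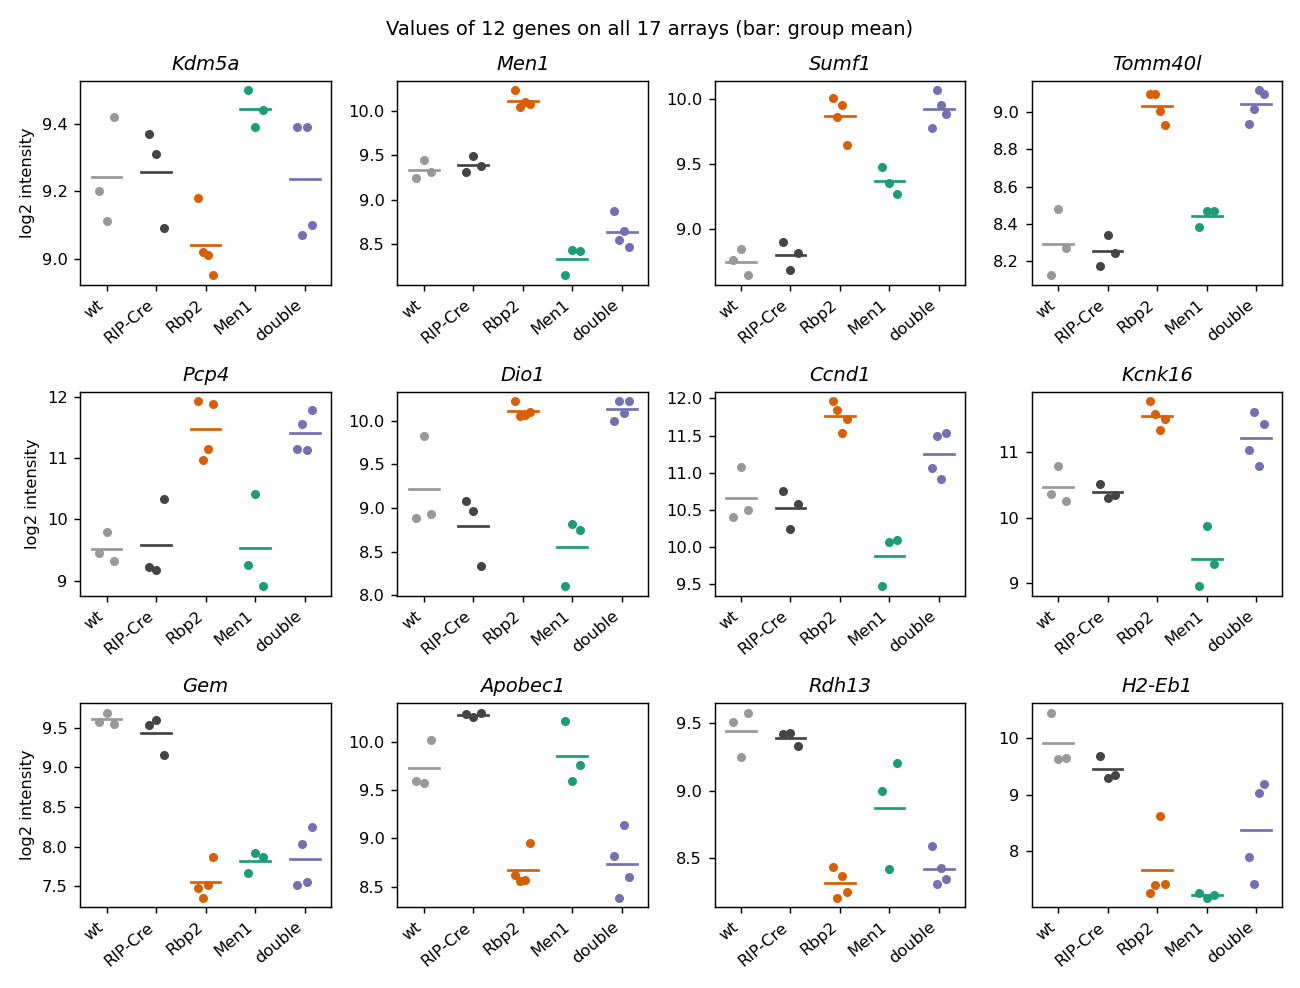
Log2 intensity of 12 genes on all 17 arrays in 5 groups (points, arrays; bars, group means), with Rbp2, Men1 and double standing for the Rbp2flf, Men1flf and Men1flf Rbp2flf groups with RIP-Cre. Sumf1, Tomm40l, Pcp4, Dio1, Ccnd1 and Kcnk16 sit higher, and Gem, Apobec1, Rdh13 and H2-Eb1 lower, on the Rbp2 arrays than on the RIP-Cre arrays; Kdm5a overlaps.

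Loss of Rbp2 was measured a second time as the double knockout (4 arrays) minus the Men1 knockout (3 arrays). This difference shares no array with the first. Both use the same estimate of the spread of each gene over all 17 arrays, so the calls are not fully independent. In that comparison 333 genes were called (1.67%), 220 higher (1.1%) and 113 lower (0.567%). Called in both in the same direction were 75 genes, 58 higher and 17 lower, which is 2.81% of the first list and 22.5% of the second. In opposite directions 9 genes were called. Over all 2672 genes called first, 38.5% had the same sign in the Men1 background, against 34.0% of all tested genes. After cyclic loess, where 2.32% of genes were called in the second comparison, the shares were 49.9% and 45.1%, with 85 genes called in both in the same direction and 8 in opposite directions. Of the 159 stable genes, 109 had the same sign (68.6%), 29 were called in both in the same direction and 3 in opposite directions. Without RIP-Cre array 3 the count of 75 became 42, and without Rbp2flf RIP-Cre array 1 it became 38. When each comparison was fitted on its own arrays only, it became 40, and the first list shrank from 2672 to 1080 genes.

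The 10 largest same-direction effects were those of Pcp4, Dapl1, Msln, Dio1, Gdpd3, Ccnd1, Kcnk16, Apobec1, Cblc and Spc25. Pcp4 rose by 1.87 in the Men1 background (adjusted p = 0.00854), Dapl1 by 2.24 (adjusted p = 0.00471) and Dio1 by 1.57 (adjusted p = 0.000924). Ccnd1 rose by 1.38 (adjusted p = 0.00142). The first-comparison values of these genes were of like size, as given above, and their interactions were not called. Apobec1 fell by 1.12 (adjusted p = 0.00246). Gdpd3 fell by 2.84 (adjusted p = 0.00132), a call that does not rest on the outlying array of the first comparison.

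Kcnk16, a background potassium channel of islet cells, read 10.52, 10.30 and 10.35 on the RIP-Cre arrays and 11.78, 11.58, 11.34 and 11.51 on the Rbp2flf RIP-Cre arrays, with no overlap. It rose by 1.16 ± 0.21 (adjusted p = 0.00942), and by 1.84 in the Men1 background (adjusted p = 0.000225). Cblc, a ubiquitin ligase of the Cbl family, rose by 0.94 and 0.95 (adjusted p = 0.00607 and 0.00282). Spc25, a part of the Ndc80 complex at kinetochores, rose by 0.92 (adjusted p = 0.0218) and by 2.54 (adjusted p = 1.29e-05). The rise of Spc25 was larger in the Men1 background, with an interaction of 1.62 (adjusted p = 0.0283). Of the genes with the highest t, Sumf1, Akr1c14, Tomm40l, Vps50 and Kcnip2 rose there too, by 0.56, 0.71, 0.60, 0.76 and 0.83.

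Several of the clearest changes in the RIP-Cre background were absent from the calls in the Men1 background, and the difference itself was tested as the interaction, called for 675 genes (3.39%; 2.53% after cyclic loess). Among all genes named here 29 had a called interaction, which is a count over genes chosen on the first comparison, and that comparison enters the interaction. Gem fell by 1.87 with Men1 present and differed by 0.02 without it (interaction 1.89, adjusted p = 0.00197). Its mean was 9.60 in wt islets, 7.82 in the Men1 knockout and 7.84 in the double knockout, so it was low in every knockout group. Adh1 rose by 0.95 in one background and fell by 0.63 in the other (adjusted p = 0.0172; interaction -1.58, adjusted p = 0.00111). Myo7a, an unconventional myosin of sensory cells, fell by 0.63 (adjusted p = 0.0139) and rose by 1.28 (adjusted p = 5e-05; interaction 1.92, adjusted p = 0.000105). Myo7a was picked after its values were seen. Emc7 and Selenop, both up with Men1 present, differed by -0.06 and 0.14 in its absence, with interactions of -1.51 and -1.17 (adjusted p = 0.0409 and 0.042).

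**Figure D3:**
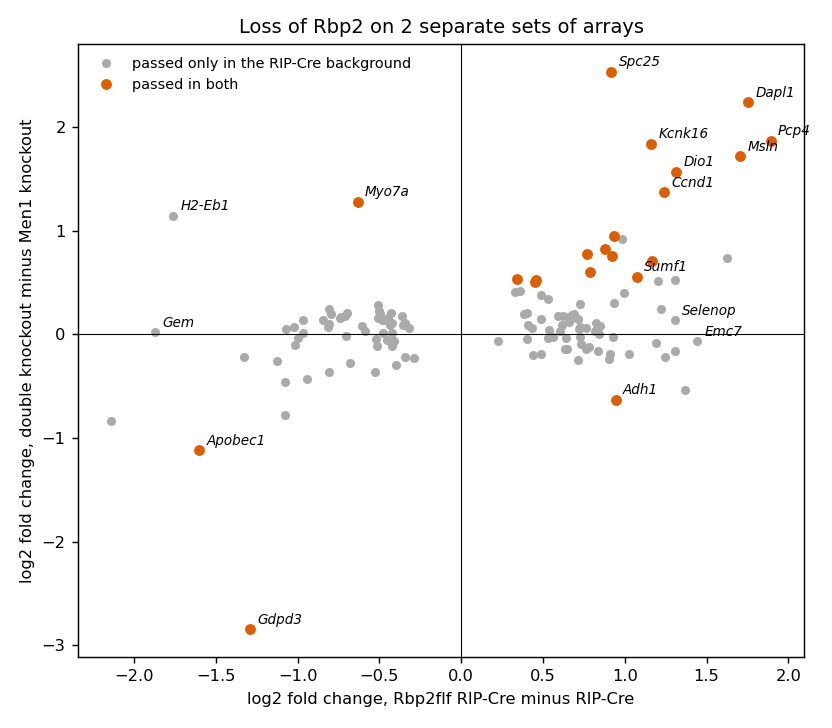
Log2 fold change of Rbp2 loss with Men1 present (x, Rbp2flf RIP-Cre minus RIP-Cre) and with Men1 lost (y, double minus Men1 knockout) for the genes the analysis names that were called in the first comparison. Orange points were called in both. Pcp4, Dapl1, Msln, Dio1, Ccnd1 and Kcnk16 lie in the upper right, Apobec1 and Gdpd3 in the lower left, Gem near 0 on the y axis, and Adh1 and Myo7a in opposite corners.

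The machinery of the mark was the first gene group examined. Called were 0% of H3K4 demethylases, 13% of H3K4 methyltransferase complex members, 11.8% of other histone demethylases and 3.7% of Polycomb genes. The share over all genes was 13.4%. None of the 9 tested H3K4 demethylases was called, Kdm5a included, and their median difference was -0.04, against -0.13 over all genes. Of 23 members of H3K4 methyltransferase complexes, 3 were called higher and 0 lower (median 0.06; 1 higher after cyclic loess): Men1, Paxip1 (0.46, adjusted p = 0.0188) and Setd7 (0.23, adjusted p = 0.0414). Men1 was the stable one. Of 17 other histone demethylases, Kdm7a was called higher (0.93, adjusted p = 0.0198) and Kdm4a lower (-0.46, adjusted p = 0.0333). After cyclic loess 2 of the 17 were called higher and 2 lower. Of 27 Polycomb genes, Ring1 was called lower and none higher (after cyclic loess 1 lower).

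Partner proteins of Kdm5a, among them the retinoblastoma family and Sin3 complex, held 30 tested genes, of which 5 were called higher and 2 lower (median 0.05; after cyclic loess 5 and 1). The share called was 23.3%, against 13.4% of all genes. The histone deacetylase Hdac2 read 9.20, 9.05 and 8.59 against 9.70, 9.46, 9.43 and 10.82, where Rbp2flf RIP-Cre array 4 stood more than 1 unit above the rest. Its difference was 0.91 ± 0.26 (adjusted p = 0.0344). Rb1, the retinoblastoma protein, read 9.02, 8.57 and 8.92 against 9.33, 9.31, 9.07 and 9.38 and rose by 0.44 ± 0.11 (adjusted p = 0.0274). Morf4l2 and the histone chaperones Rbbp4 and Rbbp7 rose by 0.71, 0.53 and 0.49, and the Sin3 complex members Arid4a and Brms1l fell by 0.35 and 0.29. None of the 7 was stable.

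Cell cycle genes were called in shares around the 13.4% of all genes, at 21.1% of cyclins and their kinases, 12.5% of DNA replication genes and 7.69% of mitosis genes. Of 19 cyclins, their kinases and E2f factors, Ccnd1 and Ccnd2 were called higher and the repressors E2f7 and E2f8 lower. Ccnd2, the main D-type cyclin of adult beta cells, read 12.67, 12.35 and 12.37 against 13.24, 13.25, 13.06 and 13.18, with no overlap. It rose by 0.72 ± 0.15 (adjusted p = 0.0146), 0.30 after cyclic loess, and it was not called without RIP-Cre array 3. Of 32 DNA replication genes 2 were called higher (Rrm1 and Rfc5) and 2 lower (Cdc6 and Uhrf1). Of 26 mitosis genes Plk1 and Birc5 were called lower and none higher. After cyclic loess 1 mitosis gene, 0 replication genes and 0 of the 19 cyclins, kinases and E2f factors were called lower. None of the 6 CDK inhibitors was called; their median was -0.16 and -0.13 after cyclic loess.

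Subunits of the respiratory chain were called higher in 40% of complex I and 53.8% of complexes II to V, and none was called lower. Of 35 tested complex I subunits, 14 were called higher (median 0.33; after cyclic loess 8 higher, 0 lower, median 0.23). Of 39 subunits of complexes II to V, 21 were called higher (median 0.49; after cyclic loess 8 higher, 0 lower, median 0.32). With the array median as a covariate their medians were 0.17 and 0.25, with 1 complex I gene called, Ndufa9 (9 at an unadjusted p below 0.05), and none of the others (11 unadjusted). Leaving out 1 array gave 2 to 14 complex I genes, with 2 without RIP-Cre array 3, 3 and 5 without Rbp2flf RIP-Cre arrays 1 and 2 and 7 without RIP-Cre array 2, while the median stayed between 0.28 and 0.38. For complexes II to V it gave 0 to 23, with 0 without RIP-Cre array 3 (26 unadjusted) and 2 and 7 without Rbp2flf RIP-Cre arrays 1 and 2, and a median between 0.43 and 0.59. Over all genes the higher calls were 124, 249 and 566 without these arrays, in that order. Cox4i1, a subunit of cytochrome oxidase, read 9.89, 9.57 and 9.39 against 10.89, 10.42, 10.35 and 10.78 and rose by 0.99 ± 0.20 (adjusted p = 0.0128). Ndufs6 of complex I read 9.64, 9.53 and 9.58 against 10.12, 10.12, 9.93 and 10.12 and rose by 0.49 ± 0.08 (adjusted p = 0.00708). Both sets of arrays were apart in each gene. Atp5o of the ATP synthase rose by 0.85 and the succinate dehydrogenase subunit Sdhc by 0.66 (adjusted p = 0.0192 and 0.0129). These are bright genes, with median levels of 9.53 and 10.3 for the lists, and among all genes of the brightest 10% and the next 10%, 25.7% and 14.4% were called higher. In the Men1 background the medians were 0.04 and 0.08, and no subunit of either list was called.

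Other mitochondrial genes were called higher in 14 of 75 and 6 of 22 cases, against 6.7% of all genes. Of 75 mitochondrial ribosomal proteins, 58 were not called, 14 were called higher and 3 lower (median 0.10; after cyclic loess 11 higher and 1 lower, median 0.15). Mrps23 rose by 0.60 ± 0.11 and Mrpl39 by 0.40 ± 0.07 (adjusted p = 0.00942 and 0.00942), and both were stable. Mrpl46 rose in both backgrounds, by 0.45 and 0.50 (adjusted p = 0.0161 and 0.0119). Of 22 genes of mitochondrial dynamics and biogenesis, 15 were not called, 6 were called higher and 1 lower (after cyclic loess 4 and 1). Without RIP-Cre array 3 the higher counts were 2 and 0, without Rbp2flf RIP-Cre array 1 they were 2 and 1, and without any other single array 6 to 17 and 4 to 7. Among all genes, 124 were called higher in the first of these settings and 249 in the second. The import proteins Tomm20 and Timm23 rose by 0.72 and 0.76, the coactivator Ppargc1a by 0.49, and the mitochondrial RNA polymerase Polrmt fell by 0.32 (adjusted p = 0.0122, 0.0184, 0.0218 and 0.0427).

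ER chaperones and unfolded protein response genes gave the largest share of calls of the 39 lists (67.9%, against 13.4% of all genes). Of the 28 tested, 19 were called higher and 0 lower (median 0.60). After cyclic loess 7 were called higher and 1 lower (median 0.31), and 1 was stable. With the array median as a covariate 0 were called by limma (11 at an unadjusted p below 0.05; median 0.33). Without RIP-Cre array 3, or Rbp2flf RIP-Cre array 1 or 2, the count was 1, 2 and 4, and the median stayed between 0.50 and 0.67 whichever array was left out. Without these arrays 124, 249 and 566 of all genes were called higher. The list is bright (median level 11.02), and in the brightest 10% of genes 25.7% were called higher. Hspa5, the chaperone BiP, read 12.12, 12.25 and 11.84 against 13.04, 12.95, 12.84 and 12.81 and rose by 0.84 ± 0.19 (adjusted p = 0.0171). Canx, calnexin, rose by 0.73 ± 0.16 (adjusted p = 0.0155). Both had groups that did not overlap, and both lost their calls without RIP-Cre array 3 or without Rbp2flf RIP-Cre array 1. Asns, asparagine synthetase, a target of the amino acid response, read 9.56, 9.71 and 9.84 against 10.51, 10.26, 10.41 and 10.55, rose by 0.73 ± 0.14 (adjusted p = 0.0112) and was the stable member. In the Men1 background none of the 28 was called and the median was -0.02.

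The ER membrane complex inserts membrane proteins into the ER. Of its 9 tested genes, 5 were called higher and 0 lower (median 0.48; after cyclic loess 4 and 0, median 0.52). The share called was 55.6%, against 13.4% of all genes. The median level of the list was 9.23, and in the level bin with a median of 9.11, 10.9% of genes were called higher. Emc7 and Emc4 were stable. With the array median as a covariate 0 were called by limma (3 at an unadjusted p below 0.05; median 0.29). Leaving out 1 array gave 2 to 6, with 2 without RIP-Cre array 3 or Rbp2flf RIP-Cre array 1 or 2 and 3 without RIP-Cre array 1. Higher calls over all genes in these settings were 124, 249, 566 and 1149. Emc4 read 9.53, 9.49 and 9.66 against 10.23, 10.14, 10.09 and 10.28 and rose by 0.62 ± 0.11 (adjusted p = 0.00942), while Emc6 rose by 0.64 ± 0.18 (adjusted p = 0.0332). The median in the Men1 background was -0.04, with none called.

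Of 17 cholesterol synthesis genes 5 were called higher and 0 lower (median 0.30; after cyclic loess 2 and 0, median 0.40). Insig1, which holds back the sterol-sensing machinery, read 10.55, 10.71 and 10.44 against 11.70, 11.20, 11.19 and 11.47 and rose by 0.82 ± 0.15 (adjusted p = 0.0103). It was the stable member. Msmo1 and Fdft1, enzymes of the pathway, rose by 0.71 and 0.54 (adjusted p = 0.0259 and 0.0262). Of 23 selenoproteins and related genes 5 were called higher and 1 lower (median 0.29; after cyclic loess 5 and 0, median 0.22). The cholesterol and selenoprotein lists had 29.4% and 26.1% of their genes called, against 13.4% of all genes. Beside Dio1 and Selenop, both stable, the ER proteins Selenof and Selenot rose by 1.02 and 0.84, and the thyroid-hormone-inactivating deiodinase Dio3 fell by 0.52 (adjusted p = 0.0262, 0.0271 and 0.0479).

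Of the signalling lists, 7.14% of RGK GTPases and calcium channel subunits, 23.5% of RGS proteins, 25% of calmodulin genes and small regulators and 17.4% of Notch pathway genes were called, against 13.4% of all genes. Of 14 RGK GTPases and calcium channel subunits Gem was the only gene called (2 were called lower after cyclic loess). Of 17 RGS proteins, which speed the shut-off of G proteins, Rgs2, Rgs5 and Rgs16 were called higher and Rgs9 lower (after cyclic loess 2 and 1). Rgs9 read 11.11, 10.83 and 10.97 against 10.16, 10.12, 10.48 and 9.89, fell by 0.81 ± 0.15 (adjusted p = 0.00942) and was the stable one. Of 12 calmodulin genes and small regulators, Pcp4 and Pcp4l1 were called higher and Nrgn, neurogranin, lower (-0.80, adjusted p = 0.0385). After cyclic loess 2 of the 12 were called higher and 0 lower. Of 23 Notch pathway genes none was called higher and 4 lower (median -0.10; after cyclic loess 3 lower): Notch1 (-0.36), Hes5 (-0.50), Hes7 (-0.59) and Heyl (-0.42), with adjusted p between 0.0301 and 0.0423. Notch1 read 10.22, 10.14 and 10.23 against 9.77, 9.84, 9.84 and 9.90, with no overlap, and none of the 4 was stable.

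Among 23 immediate early genes Btg2 was called higher and Fosl1 lower (after cyclic loess 0 and 0). Of 12 lactogen response genes Ccnd2 was called higher, and Birc5, Tph1 and Tph2 lower (after cyclic loess 1 and 0). Tph1 and Tph2, the enzymes that begin serotonin synthesis, were dim, at 6.95 and 7.09 on average in RIP-Cre islets. Their differences after cyclic loess were -0.19 and -0.30 and not called. Of 24 interferon response genes Oas1b was called lower (-0.41), and none after cyclic loess. Of 37 Hox genes, also dim with a median level of 7.25, Hoxb7, Hoxb9 and Hoxa13 were called lower and none higher (median -0.32, and -0.14 after cyclic loess). Called were 8.7% of immediate early, 33.3% of lactogen response, 4.17% of interferon response and 8.11% of Hox genes, against 13.4% of all genes.

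Beta cell identity genes had no common direction that held after cyclic loess. Of 15 beta cell transcription factors Foxa2 was called higher (median 0.15); after cyclic loess none was called higher and 3 lower (median -0.07). Of 30 genes of glucose sensing and secretion 8 were called higher and 1 lower (median 0.23), but after cyclic loess 3 were higher and 4 lower and the median turned to -0.10. Shares called were 6.67% of the transcription factors and 30% of the secretion genes, against 13.4% of all genes. The secretion list is bright (median level 11.75), and in the brightest 10% of genes 25.7% were called higher. After cyclic loess 5.61% of all genes were called higher and 3.81% lower. G6pc2, the glucose-6-phosphatase of islets, read 11.61, 11.71 and 11.18 against 12.47, 12.47, 12.23 and 12.48 and rose by 0.91 ± 0.16 (adjusted p = 0.00848). The granule protein Scg2 read 12.04, 11.85 and 11.89 against 12.82, 12.54, 12.75 and 12.73 and rose by 0.78 ± 0.15 (adjusted p = 0.0104). Both genes had no overlap and were stable, with differences after cyclic loess of 0.56 and 0.41. Scg3 and the incretin receptor Glp1r were called higher (0.63 and 0.65) and the syntaxin Stx1a lower (-0.47). None of the 18 genes usually silent in beta cells was called (median -0.24, and -0.07 after cyclic loess).

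The hormones sat near the top of the scale, and none was called. Ins2 read 13.54, 13.62 and 13.59 on the RIP-Cre arrays and 13.59, 13.63, 13.67 and 13.62 on the Rbp2flf RIP-Cre arrays, a difference of 0.04 ± 0.07 (adjusted p = 0.623), with overlapping groups. Gcg, Sst and Ppy, the hormones of alpha, delta and PP cells, differed by 0.26, 0.29 and 0.40 (adjusted p = 0.225, 0.249 and 0.219). All 4 signs turned after cyclic loess, to -0.44, -0.22, -0.20 and -0.09, again not called. Ttr, transthyretin, which is abundant in alpha cells, was called higher, at 0.99 ± 0.23 (adjusted p = 0.0192), the only call among 11 genes of other endocrine cells. That is 9.09% of the list, against 13.4% of all genes. Fewer cells of a type and less RNA per cell cannot be told apart in whole islets.

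**Figure D4:**
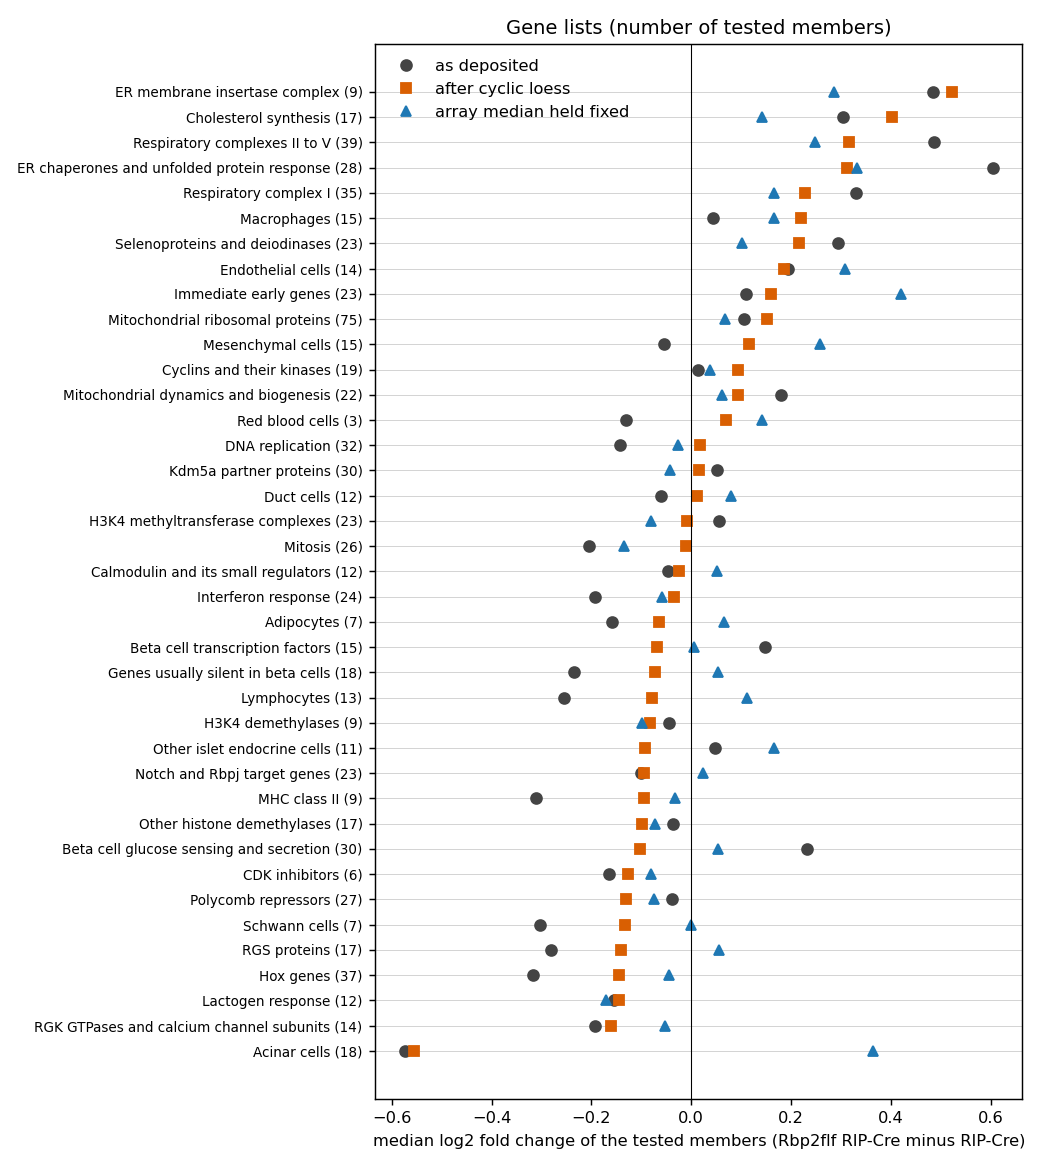
Median log2 fold change (Rbp2flf RIP-Cre minus RIP-Cre) of the tested members of 39 gene lists, with their number in brackets, as deposited, after loess and in a model that includes the median of each array. The ER and respiratory lists lie right of 0 in all 3; the acinar list lies at -0.57 and -0.56 in the first 2 and at 0.36 in the last.

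Markers of other cells were read for the same arrays. Acinar markers, from the exocrine tissue around the islets, had array means of 7.80, 8.86 and 10.17 on the RIP-Cre arrays and 7.98, 8.54, 9.06 and 8.12 on the Rbp2flf RIP-Cre arrays. RIP-Cre array 3 had both the highest acinar mean and the highest array median. None of the 18 acinar genes was called, with a median of -0.57 and of -0.56 after cyclic loess, and with the array mean of this list as a covariate 1519 genes were called in place of 2672. The summed linear intensity of the list ran from 4910 to 29964 in RIP-Cre and from 5988 to 12690 in Rbp2flf RIP-Cre. The part of acinar RNA in the counts of calls was not tested beyond that covariate.

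The duct list summed on the linear scale to between 5792 and 7033 in RIP-Cre and between 8023 and 8560 in Rbp2flf RIP-Cre. Its mean log2 level overlapped between the groups, at 8.35, 8.20 and 8.56 against 8.32, 8.43, 8.47 and 8.48, and its median difference was -0.06 (0.01 after cyclic loess), with Krt8 and Cldn7 called higher (0.68 and 0.53) and Cftr lower (-0.52) among 12, and none after cyclic loess. The endothelial list summed to between 8349 and 9878 against between 9560 and 12236, with Emcn, Kdr and Flt1 called higher among 14 (0.56, 0.40 and 0.41; 2 after cyclic loess). Of 15 mesenchymal genes Acta2 and Rgs5 were called higher (0.66 and 0.76), and 3 were higher after cyclic loess. Of 7 adipocyte genes Adipoq was called lower (-0.49), and none after cyclic loess. None of 15 macrophage, 13 lymphocyte, 7 Schwann cell and 3 red blood cell genes was called. After cyclic loess 1 macrophage gene was called higher. Shares called were 25% of duct, 21.4% of endothelial, 13.3% of mesenchymal and 14.3% of adipocyte genes, against 13.4% of all genes. The lymphocyte list summed to between 1766 and 2350 in RIP-Cre and between 1414 and 1766 in Rbp2flf RIP-Cre. The macrophage list summed to between 2838 and 3015 against between 2865 and 3080. The lymphocyte list is dim (median level 7.10), and its median difference of -0.26 was -0.08 after cyclic loess. None of these marker lists held a value of 0, and the part of such cells in the changes above was not tested.

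Small nucleolar RNAs, guides for the chemical modification of ribosomal RNA, are a class that was picked after its values were seen. Of 51 tested, 30 were called lower, against 6.7% of all genes, and 0 higher (median -0.85; after cyclic loess 27 lower, median -0.92). Of the 51, 3 were stable. Leaving out 1 array gave 3 to 33 called lower, with 4 without RIP-Cre array 3, 3 without Rbp2flf RIP-Cre array 1, and 16, 17 and 16 without RIP-Cre array 2 and Rbp2flf RIP-Cre arrays 2 and 4, and a median between -0.92 and -0.68. Of all genes, 99 were called lower without RIP-Cre array 3 and 104 without Rbp2flf RIP-Cre array 1. The mean over the 51 was 8.97, 9.22 and 9.13 on the RIP-Cre arrays and 8.15, 8.49, 8.59 and 7.88 on the Rbp2flf RIP-Cre arrays, with no overlap. On the wt arrays it was 8.96, 8.65 and 9.25. Against wt 10 of the 51 were called, counted in either direction (median -0.65), among 1771 called over all genes. Snora16a read 11.26, 11.17 and 11.01 against 9.05, 8.57, 10.16 and 8.25 and fell by 2.14 ± 0.40 (adjusted p = 0.01), more than any named protein-coding gene. The host transcripts Snhg17 and Snhg15, whose introns give rise to such RNAs, fell by 1.13 and 1.01 (adjusted p = 0.0218 and 0.0154). The other probe sets of Snhg17 gave -1.60 and -0.12, the second not called. With the array median as a covariate 0 of the 51 were called by limma (21 at an unadjusted p below 0.05), and in the Men1 background 0 were called (6 unadjusted), with a median of -0.29.

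Genes beside Kdm5a were followed because Apobec1 and Sumf1 lie on the same chromosome, 25 and 97 tested genes away in RefSeq order. Of the 80 tested genes nearest to Kdm5a, 40 on each side, 2 were called higher and 15 lower, which is 21.2% against 13.4% of all genes. The median was -0.22, against -0.13 overall. After cyclic loess 9 were called (3 higher, 6 lower; 11.2% against 9.42%) and the median was -0.06. Mical3, a flavoprotein that acts on actin, fell by 0.68 ± 0.15 (adjusted p = 0.0154). Atp6v1e1, a subunit of the proton pump of vesicles, rose by 0.61 ± 0.15 (adjusted p = 0.0244), and the cell death regulators Bcl2l13 and Bid differed by 0.40 and -0.43. Apobec1 was the only stable gene among the 80, and 3 of the 80 were called in the Men1 background.

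**Figure D5:**
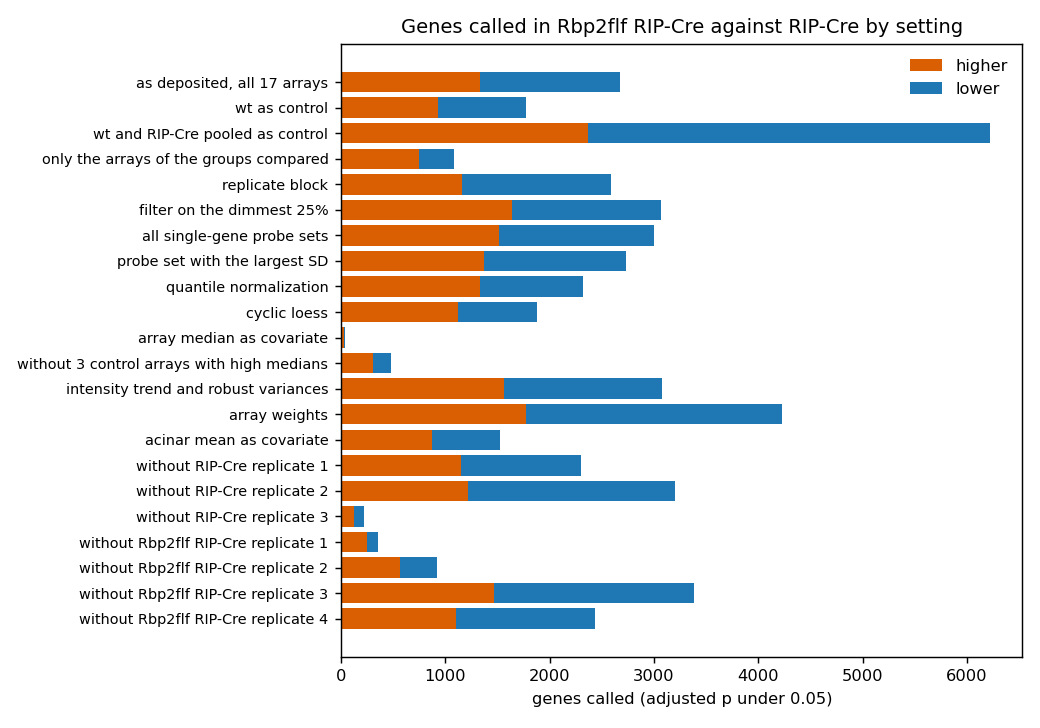
Genes called higher and lower in Rbp2flf RIP-Cre against RIP-Cre under each setting (bars, stacked counts). The count runs from 42 with the array median as a covariate and 223 without RIP-Cre replicate 3 to 6221 with both control groups pooled.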

How the data were processed

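Total RNA of islets was labelled for Affymetrix whole-transcript arrays, per the labels' protocols. The authors deposited 17 arrays as log2 intensities of 35512 probe sets. How they corrected and normalized them is not stated in the labels. The base of the logarithm follows from the low values, of which 82.3% lie at log2 of multiples of 0.25, against 9.03% of all possible 2-decimal values. No array copied another (smallest root mean square difference 0.357). The number of arrays limits the precision, and no counts stand behind the values.

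Of the probe sets, 21789 named 1 gene in the platform's gene table, 1621 named several and 12102 were not listed there. Each gene was represented by its single-gene probe set with the highest mean (19938 genes; 999 had several). A model with 1 mean per group was fitted with limma 3.58.1 (lmFit, eBayes; R 4.3.3) over all arrays, and a gene was called at a Benjamini-Hochberg adjusted p below 0.05 over all genes. The procedure was tested on simulated data with independent noise and no shift between whole arrays. That test cannot show how such shifts act on the calls here. Arrays were grouped by title.

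Members, lists and tests were chosen with earlier results of these data known, and the lists' directions are not independent evidence. Named are Kdm5a, Men1 and 4 hormones, the 15 called genes with the highest and lowest difference, the 10 with the highest and lowest moderated t, the 10 largest same-direction effects in both backgrounds, up to 3 called genes at each end of each of 39 lists (786 of 841 members tested) and called genes near Kdm5a. Predicted, clone-named, receptor-family and small RNA genes (324 called) were left out by symbol, except the small nucleolar RNAs described as a class. Alternatives were other controls, filters, probe sets, normalizations, covariates, variance models and each array left out. Promoters are RefSeq's (GRCm38.p6). Array positions on a genome were not used.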

Additional observations from a re-analysis of the deposited data

Results flagged for a closer look

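Among the genes named, 139 genes were checked in both groups of 4 arrays for an array that stood far from the other 3, which is 278 groups. The check marked 13, and chance marks about 1 in 20 such groups. On Rbp2flf RIP-Cre array 1, Glp1r read 12.88, Tomm20 9.86, Timm23 10.58, Msmo1 10.51, Selenot 11.16 and Atp6v1e1 10.83, each above the rest of its group. The same array had the lowest median of the 7. On array 3, H2-Eb1 read 8.62, above the rest, and G6pc2 12.23 and Ndufs6 9.93, below the rest. Apobec1 read 8.95 on array 4 and Gdpd3 9.49 on array 2, both above the rest. In the double knockout, Foxa2 read 9.75 on array 3 and Atp5o 10.11 on array 4.

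For 29 named genes the effect of Rbp2 loss differed between the Men1 knockout and RIP-Cre backgrounds by the interaction in limma. The genes were chosen mostly on the RIP-Cre contrast, which enters the interaction, and 21 of the 29 were also called after cyclic loess. The effect was lower in the Men1 background, on the log2 scale, for Emc7 (-1.51), Selenop (-1.17), Defb1 (-1.46), Marcks (-1.27), Lrch2 (-0.78), Dctn3 (-0.49), Adh1 (-1.58), G6pc2 (-1.10), Scg2 (-0.91), Scg3 (-0.78), Rbbp7 (-0.68), Rrm1 (-0.64), Asns (-0.75) and Rgs5 (-0.90), all of which rose in the RIP-Cre background. It was higher for Gem (1.89), H2-Eb1 (2.91), H2-K2 (1.05), Zfp872 (0.88), Baiap2l2 (0.89), Celsr1 (0.69), Ring1 (0.90), Rtkn2 (0.98), E2f7 (0.80), Rgs9 (0.91), Notch1 (0.54), Hes5 (0.73), Adipoq (0.69) and Myo7a (1.92), all of which fell in the RIP-Cre background. Spc25 (1.62) rose in both and more in the Men1 background. With the array median as a covariate the interaction was called for 3 of the named genes.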

How the results depend on the processing

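The count of genes called (2672) moved with some choices and less with others. It was 2583 with the replicate block, 3070 without the dimmest 25% of genes and 3001 with all single-gene probe sets. It was 2733 with the probe set of largest SD, 2318 after quantile normalization, 1879 after cyclic loess and 3077 with trended, robust variances. Larger moves came with the following choices. It was 1771 with wt as control, 6221 with wt and RIP-Cre pooled, 1080 with only the arrays compared, 42 with the array median as covariate, 475 without 3 control arrays with high medians, 4225 with array weights and 1519 with the acinar mean as covariate. Leaving out each of the 7 arrays gave 223 to 3382, lowest without RIP-Cre array 3 (223), Rbp2flf RIP-Cre array 1 (353) and array 2 (920). Leaving out arrays after cyclic loess, a combination added after seeing the data, gave 1236, 621 and 295 (RIP-Cre arrays 1, 2 and 3) and 355, 694, 2179 and 1144 (Rbp2flf RIP-Cre arrays 1 to 4). The 75 genes called in both backgrounds became 40 with only the arrays compared, 16 with the array median as covariate and 242 with array weights, 38 to 70 with an array left out, and 40 (Rbp2flf RIP-Cre array 1), 46 (RIP-Cre array 2) and up to 84 when an array was left out after cyclic loess.

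The 29 named genes with a called interaction became 19 with wt as control, 63 with pooled controls, 49 with the dimmest 25% of genes removed, 17 after quantile normalization, 3 with the array median as covariate, 6 without the 3 high-median controls, 59 with array weights and 5 to 48 with an array left out.

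The titles do not say whether repeat numbers pair the arrays. Deviations of same-numbered RIP-Cre and Rbp2flf RIP-Cre arrays correlated at 0.35, -0.05 and 0.45 across genes. Of 3 RIP-Cre arrays, 2 correlated best with the Rbp2flf RIP-Cre array of their own number, so these values do not settle a pairing. With the replicate block 2583 genes were called, 56 named genes had a called interaction, and after cyclic loess 1169 genes were called.

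None of the called genes among the 139 named changed direction when each choice listed in the methods was changed alone. Single genes were not followed in the combinations with cyclic loess. Many of the 139 were graded weaker, a grade that includes lost calls. Weaker were 114 with the array median as covariate, 89 without RIP-Cre array 3 and 74 without Rbp2flf RIP-Cre array 1. The number was 69 without 3 control arrays with high medians and 37 after cyclic loess. The count of called members moved by over 1.5 times for 29 of 39 lists without RIP-Cre array 3 and for 27 without Rbp2flf RIP-Cre array 1. Signs turned only for hormones that were not called: Ins2 -0.10 after quantile normalization and -0.44 after cyclic loess, after which Gcg was -0.22, Sst -0.199 and Ppy -0.0932, and Sst -0.0338 with array weights. Other probe sets disagreed for Gpatch8 (0.02, -0.70, -0.32 and 0.10) and Mrpl41 (-0.05). Causes were not tested.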
